A study of Mus musculus with 20 samples.

Results

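Transcript levels of 9 genes for sensors and adaptors of foreign or self nucleic acid were examined in 2 brain regions of mice given STZ or vehicle. The genes were chosen by name, with earlier results of these data known. All 9 were found by their mouse symbols among the 57180 Ensembl gene identifiers of the deposited count table. STZ (streptozotocin) is a toxin of the insulin-producing cells of the pancreas that is used to make rodents diabetic, and the mice had received it once, by intraperitoneal injection, at 200 mg/kg. Tissue was punched at week 7 from the paraventricular thalamic nucleus (PVT), a midline nucleus of the thalamus, and from the posterior insular cortex (pIC), an area of cortex at the side of the brain. Poly(A) RNA of each punch was sequenced as a stranded library. There were 6 PVT libraries of STZ mice and 4 PVT libraries of vehicle-treated controls, and 6 pIC libraries of STZ mice and 4 pIC libraries of controls. The labels name no strain, sex or age. The labels number the libraries within a group but do not say that each number is a separate animal, or that a number shared by PVT and pIC is the same mouse. The p-values therefore measure the spread between these libraries, part of which may be technical.

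Cells recognise viral RNA, and their own RNA when it is misplaced or double-stranded, through a small number of protein families. In the cytosol the RIG-I-like receptors Ifih1 (MDA5) and Ddx58 (RIG-I) bind double-stranded or 5'-triphosphate RNA and signal through Mavs, an adaptor on the outer mitochondrial membrane, to switch on type I interferon genes. Endosomal Toll-like receptors read RNA taken up into vesicles, Eif2ak2 (PKR) halts translation when it binds double-stranded RNA, Zbp1 binds the Z-form of nucleic acid, and Adar edits adenosine to inosine in double-stranded RNA. In brain, microglia, astrocytes, neurons and endothelium all carry some of these sensors, and several of the genes are themselves induced by interferon.

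A library held 17.9 M to 25.5 M counts in total. The PVT libraries had 439 to 1820 CPM (counts scaled to a library total of 1000000) summed over 8 markers of thalamic neurons with STZ and 452 to 1020 CPM in controls, against 121 to 166 CPM in pIC with STZ and 131 to 163 CPM in pIC controls. Summed over 8 markers of cortical excitatory neurons, PVT had 359 to 857 CPM with STZ and 150 to 826 CPM in controls, and pIC had 1280 to 2260 CPM with STZ and 1820 to 2090 CPM in controls. PVT control replicate 4 stood apart, with 16900 CPM summed over 8 pituitary genes, where the other PVT libraries had 2.62 to 12.2 CPM. An earlier analysis of these data gave 4 PVT libraries as lowest in thalamus genes, and their sums over the 8 markers were 439 CPM in STZ replicate 1, 498 CPM in STZ replicate 2, 452 CPM in control replicate 2 and 658 CPM in control replicate 4. PVT STZ replicate 3, at 456 CPM, was as low and was not among those 4.

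Promoter windows, each 250 bases before to 50 bases after a RefSeq transcript start on build GRCm38.p6, were at hand for 6 of the 9 genes. Dhx58, Zbp1 and Tlr7 had none in the table used. Both strands were searched for the core of the interferon-stimulated response element, GAAANNGAAA, and for the core of the gamma-activated site, TTCNNNGAA, which reads the same on the other strand. The windows below are those of the 3 genes with a response element core, of Tlr3, which fell with STZ in PVT and has neither core, and of the third start site of Adar, a gene that did not pass the test in either region. They are read 5' to 3' in the direction of the gene, and capitals mark a response element core or a gamma-activated site core. The Ifih1 window is chr2:62646206-62646505 on the minus strand, the Ddx58 window chr4:40239776-40240075 on the minus strand, the Eif2ak2 window chr17:78882523-78882822 on the minus strand, the Tlr3 window chr8:45410331-45410630 on the minus strand and the Adar window chr3:89730468-89730767 on the plus strand.
Ifih1: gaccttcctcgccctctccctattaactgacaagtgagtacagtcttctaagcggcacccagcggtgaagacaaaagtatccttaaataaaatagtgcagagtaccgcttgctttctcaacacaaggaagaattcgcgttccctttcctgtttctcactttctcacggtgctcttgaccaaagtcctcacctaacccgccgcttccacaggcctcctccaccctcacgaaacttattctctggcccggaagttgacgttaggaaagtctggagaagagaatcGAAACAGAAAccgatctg
Ddx58: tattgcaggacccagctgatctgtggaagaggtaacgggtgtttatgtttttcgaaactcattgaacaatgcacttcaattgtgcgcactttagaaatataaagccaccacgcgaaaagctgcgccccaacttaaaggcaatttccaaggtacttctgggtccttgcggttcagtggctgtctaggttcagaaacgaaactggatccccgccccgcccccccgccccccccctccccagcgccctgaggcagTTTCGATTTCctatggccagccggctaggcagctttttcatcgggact
Eif2ak2: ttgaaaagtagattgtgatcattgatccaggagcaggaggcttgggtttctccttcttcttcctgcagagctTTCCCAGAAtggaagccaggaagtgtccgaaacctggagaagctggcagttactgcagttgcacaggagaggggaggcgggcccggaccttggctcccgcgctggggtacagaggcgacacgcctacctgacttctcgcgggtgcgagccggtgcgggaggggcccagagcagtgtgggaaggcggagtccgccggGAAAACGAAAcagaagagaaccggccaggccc
Tlr3: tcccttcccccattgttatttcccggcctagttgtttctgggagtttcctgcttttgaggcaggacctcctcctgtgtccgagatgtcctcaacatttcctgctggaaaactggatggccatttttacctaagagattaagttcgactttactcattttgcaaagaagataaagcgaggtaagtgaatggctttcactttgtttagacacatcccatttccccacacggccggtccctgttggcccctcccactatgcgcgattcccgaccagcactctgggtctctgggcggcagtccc
Adar, start site 3: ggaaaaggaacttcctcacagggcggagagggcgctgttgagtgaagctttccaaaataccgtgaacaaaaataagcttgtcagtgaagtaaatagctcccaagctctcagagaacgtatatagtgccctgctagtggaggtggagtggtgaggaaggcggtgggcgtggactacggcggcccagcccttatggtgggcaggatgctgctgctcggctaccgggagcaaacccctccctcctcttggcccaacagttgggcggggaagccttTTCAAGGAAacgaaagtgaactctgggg

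The response element core lay just after the start in all 3 genes that held it. In Ifih1 it covered bases 33 to 42 after the start. In Ddx58 it was on the opposite strand and covered bases 3 to 12. In Eif2ak2 it covered bases 19 to 28, and a gamma-activated site core lay upstream, from base -178 to base -170. The third Adar window held a gamma-activated site core at bases 23 to 31 and no full response element core. It did hold the response element core without its last base, GAAANNGAA, at bases 34 to 42 and at bases -249 to -241. Neither the full response element core nor the gamma-activated site core was present in the windows of Mavs, Tlr3 or the other Adar starts. Over all 32851 windows of the table, 3.44% held the response element core and 8.3% the gamma-activated site core. A match says only that these letters are present, and no match says only that they are absent from this window.

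**Figure D1:**
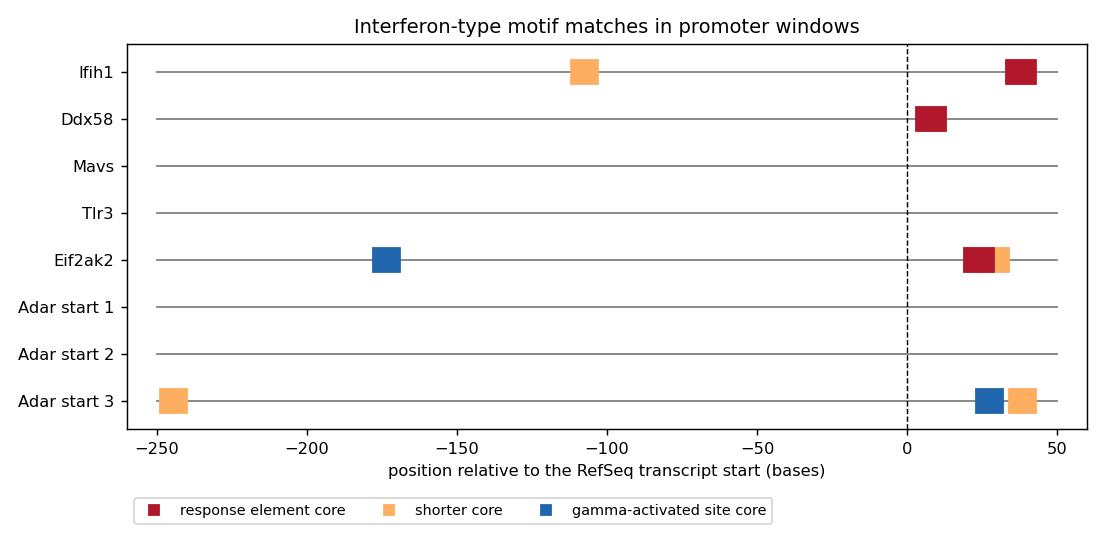
Positions of motif matches in the promoter windows of 6 genes, in bases relative to the RefSeq transcript start (dashed line at 0). Grey lines are the windows, and boxes mark the response element core (red), the shorter core without its last base (orange) and the gamma-activated site core (blue). Red boxes appear in Ifih1, Ddx58 and Eif2ak2, all after the start.

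In PVT, 6 of the 9 genes fell with STZ and 0 rose. These were the RIG-I-like receptors Ifih1, Ddx58 and Dhx58, the Toll-like receptor Tlr3, the kinase Eif2ak2 and the Z-form sensor Zbp1. Among all 17076 genes tested in PVT, 1.59% were called lower and 0.474% higher at an adjusted p under 0.05. These were 272 lower and 81 higher, and 416 lower and 58 higher with upper quartile scaling. In pIC, 4 of the 9 fell and 0 rose, namely Ddx58, Dhx58, Eif2ak2 and Zbp1, where 0.964% of the 16189 genes tested were called lower and 0.432% higher. The median log2 fold change of the 9 genes, STZ over control, was -1.13 in PVT and -0.56 in pIC, against 0.004 and -0.001 over all genes tested in the same regions. The STZ and control libraries did not overlap for 6 of the 9 genes in PVT, where 6.28% of all genes tested did not overlap. They did not overlap for 7 of the 9 in pIC, against 4.23% of all genes tested. Because the 9 genes were chosen with earlier results of these data known, the shares over all genes are a description only. All 9 passed the filter on low counts in each region. Zbp1 passed it through the controls alone, as its STZ libraries held 2 to 9 counts in PVT and 3 to 8 in pIC. In tissue punches a lower level in each cell cannot be told apart from fewer cells of a type that carries the transcript.

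**Figure D2:**
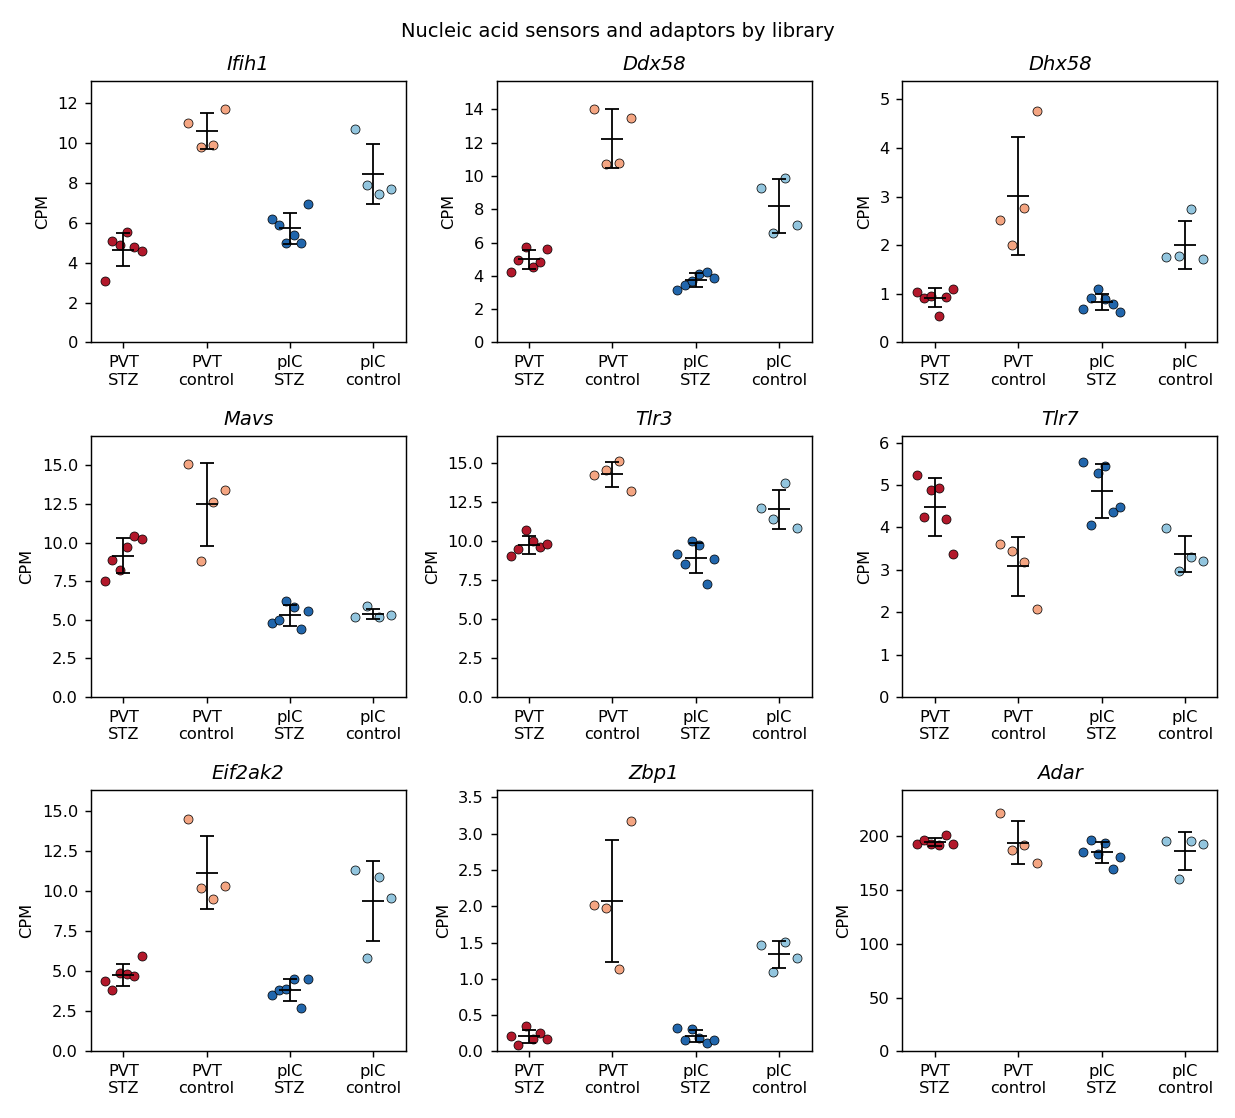
CPM of each of the 9 genes in every library (points), with the group mean and SD (bars), in PVT STZ (n = 6), PVT control (n = 4), pIC STZ (n = 6) and pIC control (n = 4). The STZ points of Ddx58, Dhx58, Eif2ak2 and Zbp1 all lie below the control points of the same region, and those of Adar overlap them.

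**Figure D3:**
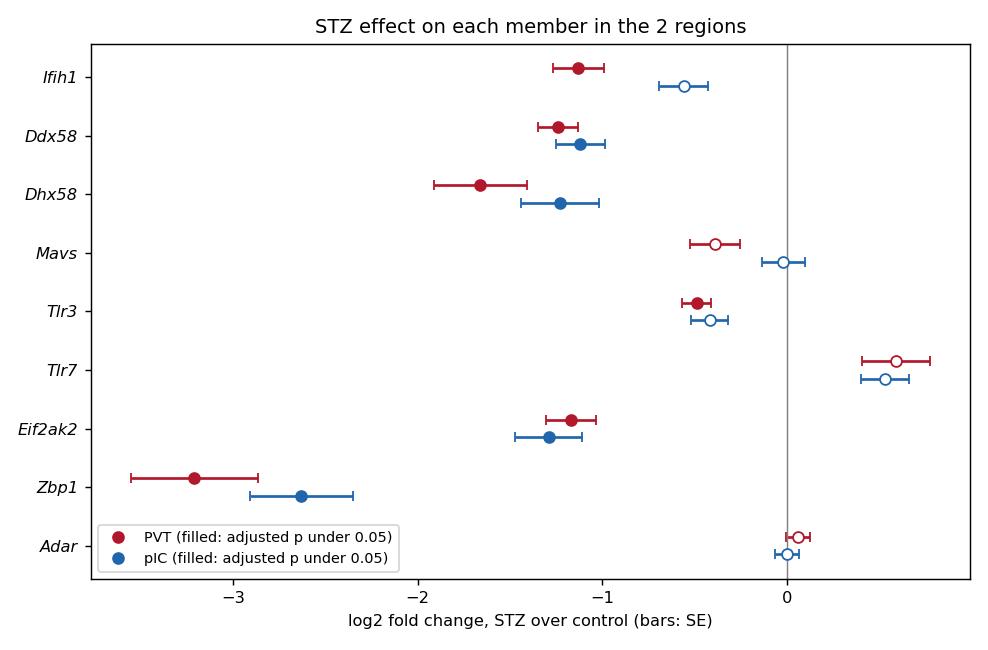
Log2 fold change, STZ over control, of each gene in PVT (red) and pIC (blue), with the SE as bars and filled points at an adjusted p under 0.05. Filled points are at -0.49 and below in PVT and at -1.12 and below in pIC, and the open Tlr7 points lie to the right of 0.

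Ifih1 (ENSMUSG00000026896), the sensor of long double-stranded RNA, had 3.09 to 5.56 CPM with a median of 4.83 CPM in PVT STZ libraries, against 11.0, 9.78, 9.91 and 11.7 CPM in PVT controls. Every STZ library was below every control. The level averaged 4.66 ± 0.838 CPM with STZ (SD, n = 6) and 10.6 ± 0.918 CPM in controls (SD, n = 4), and it had a log2 fold change of -1.13 (SE 0.136, edgeR quasi-likelihood test with Benjamini-Hochberg adjustment, adjusted p = 0.00135). In pIC it had 4.97 to 6.96 CPM with a median of 5.62 CPM with STZ, against 10.7, 7.91, 7.46 and 7.71 CPM in controls. The pIC groups did not overlap either, but the log2 fold change of -0.56 (SE 0.131) missed the threshold (adjusted p = 0.0547). Over 19 other settings that adjusted p was 0.00772 to 0.202, and it passed in 7 of them. Control replicate 1 is the high one of its group in pIC, and without it the adjusted p was 0.202, while without STZ replicate 6 it was 0.0374.

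Ddx58 (ENSMUSG00000040296), the RIG-I sensor of RNA ends, is the one gene of the 9 that passed the test in both regions under each setting run. PVT STZ libraries had 4.25 to 5.72 CPM with a median of 4.89 CPM, against 14.0, 10.7, 10.8 and 13.5 CPM in PVT controls. pIC STZ libraries had 3.18 to 4.21 CPM with a median of 3.78 CPM, against 9.25, 6.59, 9.87 and 7.05 CPM in pIC controls. No STZ library reached the lowest control in its region. The log2 fold change of Ddx58 was -1.24 in PVT (SE 0.11, adjusted p = 1.8e-04) and -1.12 in pIC (SE 0.133, adjusted p = 4.1e-04).

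Dhx58 (ENSMUSG00000017830), the LGP2 helicase, binds RNA like its relatives but lacks their signalling domains and tunes their activity. It was rare here, at 13 to 26 counts in PVT STZ libraries against 42 to 117 counts in PVT controls. In CPM these were 0.547 to 1.11 with a median of 0.946 with STZ, against 2.51, 2.01, 2.77 and 4.77 in controls. The highest control is replicate 4, the library with pituitary transcripts. Dhx58 had a log2 fold change of -1.66 (SE 0.253, adjusted p = 0.00729), and one of -1.36 without that library (adjusted p = 0.0188). In pIC it had 0.633 to 1.1 CPM with a median of 0.848 CPM with STZ, against 1.76, 1.78, 2.74 and 1.72 CPM in controls, and its log2 fold change was -1.23 (SE 0.211, adjusted p = 0.0079).

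Mavs (ENSMUSG00000037523), the mitochondrial adaptor through which Ifih1 and Ddx58 signal, did not pass the test in either region. PVT STZ libraries had 7.54 to 10.4 CPM with a median of 9.29 CPM, against 15.1, 8.78, 12.6 and 13.4 CPM in PVT controls, so that the lowest control lay within the STZ range. The log2 fold change was -0.39 (SE 0.136, adjusted p = 0.174). In pIC the STZ libraries had 4.37 to 6.19 CPM with a median of 5.25 CPM, and the controls, at 5.18, 5.86, 5.15 and 5.29 CPM, lay inside that range. The log2 fold change there was -0.02 (SE 0.115, adjusted p = 0.972).

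Tlr3 (ENSMUSG00000031639), the endosomal receptor for double-stranded RNA, signals through the adaptor Ticam1. In PVT it had 8.99 to 10.7 CPM with a median of 9.67 CPM with STZ, against 14.2, 14.5, 15.1 and 13.2 CPM in controls. The groups did not overlap, and Tlr3 had a log2 fold change of -0.49 (SE 0.0767, adjusted p = 0.00803). That call was lost without the 4 PVT libraries low in thalamus genes (adjusted p = 0.207). In pIC it had 7.21 to 9.95 CPM with a median of 9.0 CPM with STZ, against 12.1, 11.4, 13.7 and 10.8 CPM in controls. These groups did not overlap, yet the log2 fold change of -0.42 (SE 0.0992) missed the threshold (adjusted p = 0.0548). Over 19 other settings that adjusted p was 0.0089 to 0.164, and it passed in 6 of them, among them the fit without STZ replicate 3 (adjusted p = 0.0321).

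Tlr7 (ENSMUSG00000044583), the endosomal receptor for single-stranded RNA, is the one gene of the 9 with a positive value in both regions, and neither value passed the test. PVT STZ libraries had 3.37 to 5.24 CPM with a median of 4.57 CPM, against 3.62, 3.45, 3.19 and 2.08 CPM in PVT controls, and the lowest STZ library lay inside the control range. The log2 fold change was 0.59 (SE 0.186, adjusted p = 0.132). In pIC the STZ libraries had 4.06 to 5.54 CPM with a median of 4.88 CPM, all above the controls at 3.98, 2.97, 3.31 and 3.22 CPM, with a log2 fold change of 0.53 (SE 0.132, adjusted p = 0.0704). DESeq2 called this pIC value (adjusted p = 0.0227), and a fit of all 20 libraries called the PVT value (adjusted p = 0.0472).

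Eif2ak2 (ENSMUSG00000024079), the RNA-activated kinase PKR, phosphorylates the initiation factor eIF2 alpha. It had 3.82 to 5.92 CPM with a median of 4.76 CPM in PVT STZ libraries, against 14.5, 10.2, 9.53 and 10.3 CPM in PVT controls. In pIC it had 2.72 to 4.53 CPM with a median of 3.87 CPM with STZ, against 11.3, 5.81, 10.9 and 9.56 CPM in controls. Control replicate 1 was well above its group in PVT and control replicate 2 well below its group in pIC, and every control was above every STZ library of its region. The log2 fold change of Eif2ak2 was -1.17 in PVT (SE 0.136, adjusted p = 0.00105) and -1.29 in pIC (SE 0.181, adjusted p = 0.00208).

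Zbp1 (ENSMUSG00000027514), the sensor of Z-form nucleic acid that can trigger necroptosis through Ripk3, had the largest fold change of the 9 genes in each region and the fewest counts. PVT STZ libraries held 2 to 9 counts and PVT controls 24 to 78 counts, which is 0.0922 to 0.355 CPM with a median of 0.188 CPM, against 2.01, 1.97, 1.13 and 3.18 CPM. pIC STZ libraries held 3 to 8 counts and pIC controls 24 to 34 counts, which is 0.12 to 0.323 CPM with a median of 0.173 CPM, against 1.46, 1.1, 1.51 and 1.28 CPM. No STZ library came near a control of its region. The log2 fold change of Zbp1 was -3.21 in PVT (SE 0.343, adjusted p = 5.6e-04), -2.94 without PVT control replicate 4 (adjusted p = 0.00274), and -2.63 in pIC (SE 0.279, adjusted p = 1.3e-04). Its SE was the largest of the 9 genes in each region, and the fitted value without the 4 PVT libraries low in thalamus genes was -2.62, where the call was lost (adjusted p = 0.095).

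Adar (ENSMUSG00000027951), the RNA editing enzyme that marks self RNA, makes a longer interferon-inducible and a shorter constitutive form, which a count for the whole gene does not separate. It had 192 to 201 CPM with a median of 193 CPM in PVT STZ libraries, against 222, 187, 192 and 175 CPM in PVT controls. The STZ values lay within the control range, and the log2 fold change was 0.06 (SE 0.0654, adjusted p = 0.666). In pIC it had 170 to 197 CPM with a median of 184 CPM with STZ, against 196, 160, 196 and 193 CPM in controls, a level 0.998 times that of controls in the fit (SE 0.0647 on the log2 scale, adjusted p = 0.992).

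All 6 PVT genes were called when any single library was left out, including PVT control replicate 4. Without the 4 libraries given as low in thalamus genes, which leaves 4 STZ and 2 control libraries, 2 of the 6 were called, Ifih1 (adjusted p = 0.0401) and Ddx58 (adjusted p = 0.0398). The call was lost there for Eif2ak2 (adjusted p = 0.0754), Zbp1 (0.095), Dhx58 (0.159) and Tlr3 (0.207), and the calls over all genes fell to 35, against 353 with all libraries. The fold changes of the 6 stayed between -0.5 for Tlr3 and -2.62 for Zbp1 in that fit. In pIC the 4 calls held when any single library was left out.

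**Figure D4:**
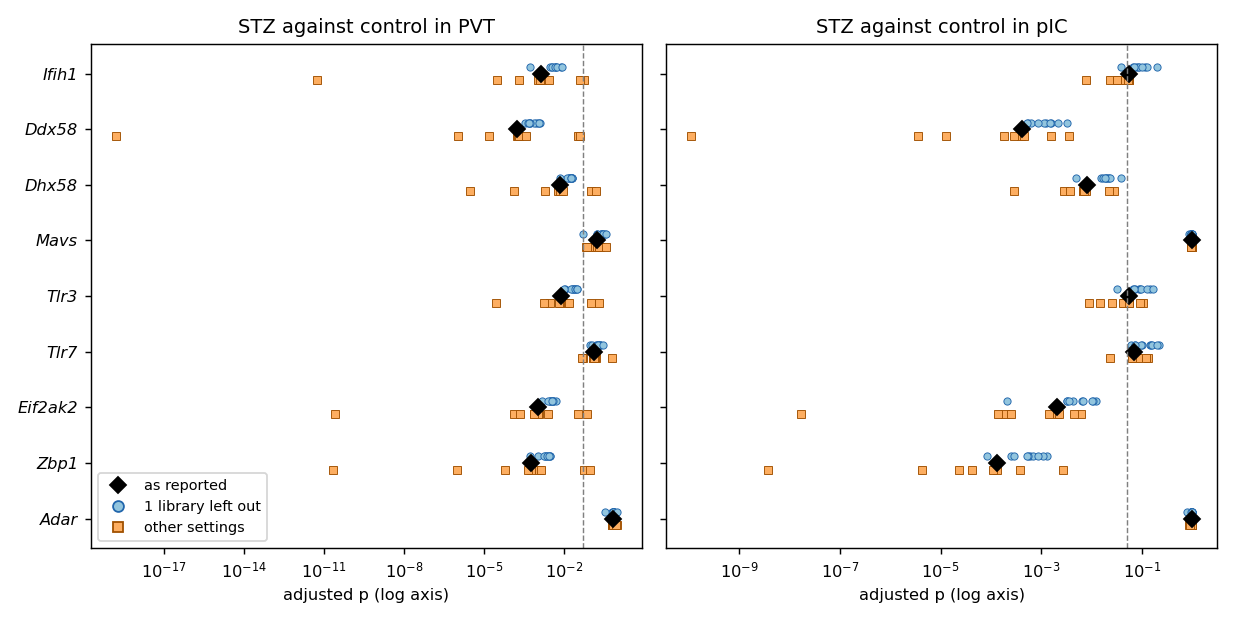
Adjusted p (log axis) of STZ against control for each gene as reported (black diamonds), with 1 library left out (blue circles) and under other settings (orange squares), in PVT and pIC. The dashed line is 0.05, and the points of Ddx58 stay to the left of it in both panels while those of Adar stay to the right of it.

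Microglia are the resident macrophages of brain and a main carrier of Toll-like receptors there. Of 10 microglia markers, 0 were called in either region, with sums of 329 to 355 CPM in PVT with STZ and 334 to 384 CPM in PVT controls, and of 302 to 350 CPM in pIC with STZ and 318 to 343 CPM in pIC controls. With a microglia marker score as covariate, the same 6 genes were called in PVT, and the largest adjusted p among them was 0.0152, for Tlr3. In pIC that fit called Ifih1 as well as the 4 genes, with an adjusted p of 0.0324 for Ifih1. The score was 4.426 to 4.567 in PVT with STZ and 4.46 to 4.699 in PVT controls. In pIC it was 4.444 to 4.627 with STZ and 4.548 to 4.652 in controls. It therefore had little difference between STZ and control to take out, and a change within microglia was not tested. Of the markers of border macrophages, the macrophages of meninges and vessels, 2 of 8 were called higher with STZ in PVT and 2 of 7 tested were in pIC, and the others did not pass. Their sums were 19.7 to 28.9 CPM in PVT with STZ and 15.3 to 17.9 CPM in PVT controls, and 22.4 to 29.9 CPM in pIC with STZ and 14.9 to 18.3 CPM in pIC controls. Their part in the values of the sensors was not tested.

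Ependyma and choroid plexus are tissues of the ventricle, next to which PVT lies. Of 8 ependyma markers, 6 were called lower with STZ in PVT, with sums of 62.0 to 92.5 CPM with STZ and 104 to 151 CPM in controls. Of 8 choroid plexus markers 0 were called, with sums of 1400 to 3500 CPM with STZ and 3100 to 6550 CPM in controls, and 3 of 8 oligodendrocyte markers and 2 of 8 pericyte and fibroblast markers were lower. In pIC the ependyma sums were 5.03 to 13.9 CPM with STZ and 4.54 to 8.23 CPM in controls, with 0 of 3 tested called, and Ddx58, Dhx58, Eif2ak2 and Zbp1 fell there as well. The part of these cells in the PVT values was not tested. Lymphocyte, neutrophil and monocyte markers were too low for most to be tested, and Ly6g, which defines neutrophils, had no count in PVT STZ, PVT control or pIC STZ libraries.

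The STZ effect was set against itself between the regions in a fit of all 20 libraries. Of the 9 genes, 0 differed in their STZ effect between PVT and pIC after adjustment, as did 0.0% of the 17427 genes tested, where DESeq2 called 4 genes and limma-voom 0. At an unadjusted p under 0.05, which 4.02% of all genes reached, there were 2 of the 9. The effect on Ifih1 was more negative in PVT than in pIC (interaction -0.58 on the log2 scale, SE 0.196, unadjusted p = 0.00737), and so was that on Mavs (interaction -0.38, SE 0.176, unadjusted p = 0.0428). The other 7 had differences of -0.59 to 0.11, and the interaction of Zbp1 (-0.59, SE 0.47) was as large as that of Ifih1 with a wider error.

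Between regions, Mavs and Ddx58 were higher in PVT than in pIC in both STZ and control mice. Mavs had a log2 fold change, PVT over pIC, of 0.67 with STZ (SE 0.104, adjusted p = 1.7e-04) and 1.05 in controls (SE 0.149, adjusted p = 2.4e-04). For Mavs the lowest PVT library lay above the highest pIC library, with STZ and in controls. The regions did not overlap, in either direction, for 30.2% of all genes tested with STZ and for 48.0% in controls. Ddx58 had a log2 fold change of 0.29 with STZ (SE 0.104, adjusted p = 0.0338) and 0.42 in controls (SE 0.144, adjusted p = 0.0327), and its call was lost in 8 of 20 other settings with STZ and in 5 of 16 in controls. With STZ these included the fits without PVT replicates 2, 3 or 6 or pIC replicates 1, 2 or 3, with an adjusted p of 0.0549 to 0.0912. In controls they included the fits without PVT replicates 1 or 4 or pIC replicates 2 or 4, with an adjusted p of 0.0805 to 0.0999. Ifih1 was lower in PVT than in pIC with STZ, at a log2 fold change of -0.42 (SE 0.135, adjusted p = 0.021), and without pIC STZ replicate 6 the adjusted p was 0.0501. Its value of 0.16 in controls (SE 0.129, adjusted p = 0.327) did not pass.

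With STZ, 8 of the 9 genes could be tested, Zbp1 being under the filter, and 2 were higher and 1 lower in PVT, where 26.0% of all genes tested were higher and 23.1% lower. In controls 2 of the 9 were higher and 0 lower, where 25.5% of all genes were higher and 22.4% lower. The count of members higher in PVT is thus near the background. The regions did not overlap for 2 of the 8 members with STZ, where 30.2% of all genes tested did not. In controls they did not overlap for 2 of the 9, where 48.0% of all genes tested did not. By mean level, low to high, Ddx58 ran in the order pIC STZ (3.75 CPM), PVT STZ (4.99 CPM), pIC control (8.19 CPM) and PVT control (12.3 CPM). In CPM each neighbouring pair in that order was free of overlap, but the gaps between regions were narrow. With STZ the highest pIC library had 4.21 CPM and the lowest PVT library 4.25 CPM, and in controls these were 9.87 and 10.7 CPM. CPM lacks the scaling used in the fits, and overlap between regions was not examined on the scaled values. Ifih1 ran in the order PVT STZ (4.66 CPM), pIC STZ (5.72 CPM), pIC control (8.45 CPM) and PVT control (10.6 CPM), and the STZ groups overlapped, as did the control groups. Mavs ran in the order pIC STZ (5.28 CPM), pIC control (5.37 CPM), PVT STZ (9.16 CPM) and PVT control (12.5 CPM), with overlap between the groups of the same region and none between regions.

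The genes that work with the sensors were read from 6 lists, also chosen with earlier results of these data known. Of the listed genes, 75 could be tested in PVT and 74 in pIC. In each region 7 fell and 0 rose, where 1.59% of all genes tested in PVT and 0.964% in pIC were called lower. Both regions shared 5 called genes of the lists. The median log2 fold change over the listed genes was -0.02 in PVT and -0.04 in pIC. By list, it was -0.33 in each region for DNA sensing and nucleic acid clearance. For the other lists it lay between -0.17 and 0.08 in PVT and between -0.13 and 0.05 in pIC. The adaptor kinase Tbk1 had log2 fold changes of 0.21 in PVT (adjusted p = 0.171) and 0.02 in pIC (adjusted p = 0.93), and its substrate Irf3 had 0.12 in PVT (adjusted p = 0.535) and 0.09 in pIC (adjusted p = 0.808). Tbk1 and Irf3 were named after their values were seen, as the steps that follow Mavs.

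Among partners of the RIG-I-like receptors, 4 of 23 fell in PVT and 3 of 22 tested fell in pIC. Irf7, the transcription factor that amplifies type I interferon output, averaged 3.79 ± 1.37 CPM in PVT with STZ (SD, n = 6) and 18.0 ± 3.61 CPM in PVT controls (SD, n = 4), a log2 fold change of -2.19 (adjusted p = 0.00143). In pIC it had 2.48 to 4.15 CPM with STZ and 12.3 to 18.9 CPM in controls, a log2 fold change of -2.2 (adjusted p = 1.6e-06). Trim25, the ubiquitin ligase that activates RIG-I, fell in both regions, with log2 fold changes of -1.43 in PVT (adjusted p = 6.5e-05) and -1.35 in pIC (adjusted p = 1.2e-04). Ddx60, a related helicase, fell with log2 fold changes of -2.29 in PVT (adjusted p = 0.00406) and -1.79 in pIC (adjusted p = 0.00258). It was rare, at 0.172 to 0.639 CPM with STZ and 1.69 to 3.1 CPM in controls in PVT. In pIC it had 0.2 to 0.369 CPM with STZ and 0.778 to 1.37 CPM in controls, so the size of its fold changes is uncertain. Zc3hav1, the antiviral protein ZAP that binds CpG-rich RNA, fell in PVT (log2 fold change -0.78, adjusted p = 0.0205), and its pIC value of -0.37 did not pass (adjusted p = 0.264).

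In the list of DNA sensing and nucleic acid clearance, 3 of 16 fell in PVT and 4 of 16 in pIC. Samhd1, which breaks down deoxynucleotides and limits DNA synthesis by viruses, averaged 15.8 ± 1.46 CPM in PVT with STZ (SD, n = 6) and 23.0 ± 2.79 CPM in PVT controls (SD, n = 4), a log2 fold change of -0.48 (adjusted p = 0.0208). It also fell in pIC (log2 fold change -0.38, adjusted p = 0.0431). Ifi204, a member of the DNA-binding p200 family, fell with log2 fold changes of -1.81 in PVT (adjusted p = 0.0208) and -2.15 in pIC (adjusted p = 0.0131). It too was rare, at 0.276 to 0.907 CPM in PVT and 0.158 to 0.627 CPM in pIC with STZ. Its controls had 1.5 to 3.06 CPM in PVT and 0.915 to 2.38 CPM in pIC. Its relatives Ifi203 and Mndal fell in pIC, with log2 fold changes of -1.37 (adjusted p = 0.0282) and -0.98 (adjusted p = 0.046), and had PVT values of -1.01 and -0.9 that did not pass. In pIC with STZ, Ifi203 had 0.377 to 1.16 CPM and Mndal 0.392 to 0.601 CPM, against 1.5 to 1.84 and 0.837 to 1.14 CPM in controls. Rnaset2b, an RNase of lysosomes, fell in PVT (log2 fold change -0.6, adjusted p = 0.0193). Rnaset2b and Rnaset2a are near-identical copies, and the p200 genes are relatives with stretches of similar sequence. The counts of all these genes depend on how shared reads were assigned and are uncertain. The DNA sensor Cgas, named after its values were seen, had 0.04 in PVT (adjusted p = 0.956) and -0.37 in pIC (adjusted p = 0.777).

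The other 4 lists held no call in either region. Of the partners of endosomal Toll-like receptors 0 of 14 tested were called, and the smallest p belonged to Unc93b1 in PVT, the chaperone that carries these receptors to endosomes (log2 fold change -0.35, adjusted p = 0.0506), and to Tlr13 in pIC, a receptor for bacterial ribosomal RNA (0.54, adjusted p = 0.142). Of genes for double-stranded RNA binding, editing and decay 0 of 12 were called, led by the mitochondrial RNA exonuclease Pnpt1 in PVT (-0.2, adjusted p = 0.184) and the PKR activator Prkra in pIC (-0.24, adjusted p = 0.155). Of the Zbp1 partners 0 of 3 tested were called, with Casp8 leading in PVT (-0.31, adjusted p = 0.35) and Fadd in pIC (-0.28, adjusted p = 0.631), while Ripk3 and Mlkl, which carry out necroptosis, were under the filter in both regions. Of the eIF2 alpha kinases and their partners 0 of 7 were called, led by the amino acid sensor Eif2ak4 in PVT (0.28, adjusted p = 0.0537) and Dnajc3, an inhibitor of PKR, in pIC (0.18, adjusted p = 0.372).

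**Figure D5:**
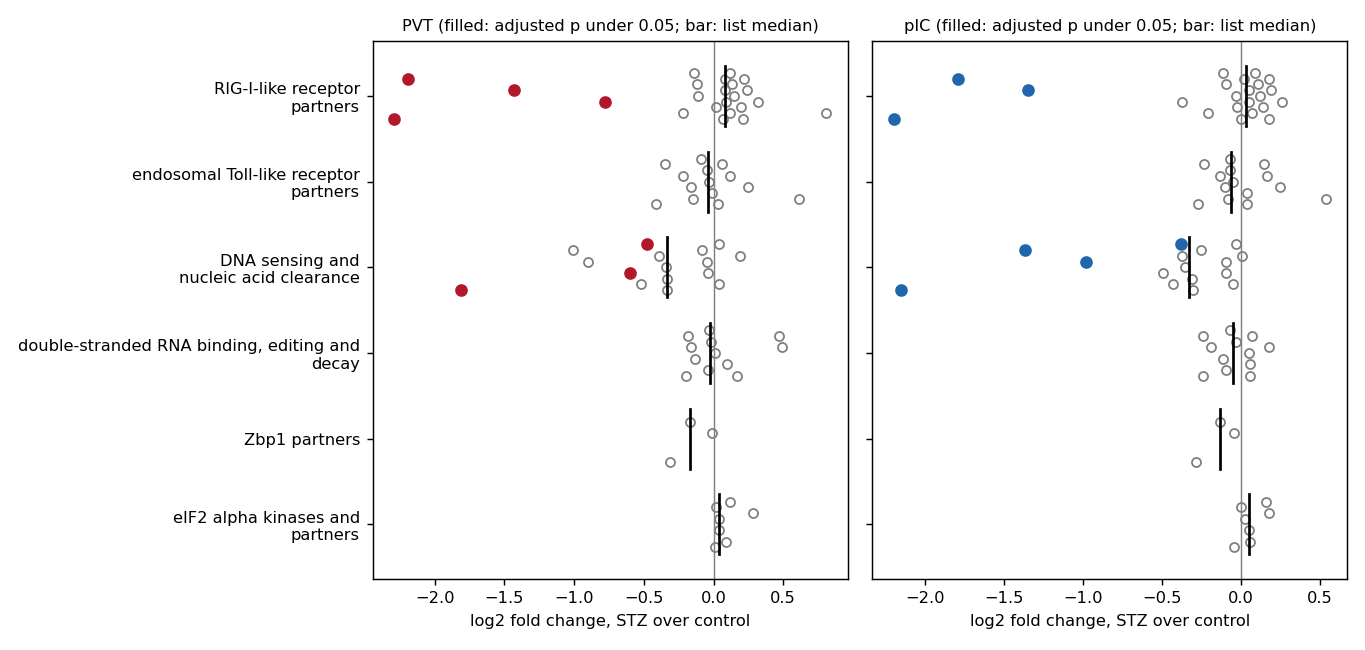
Log2 fold change, STZ over control, of each tested gene of the 6 partner lists in PVT (left) and pIC (right), with filled points at an adjusted p under 0.05 and a black bar at the list median. Filled points appear in 2 of the 6 lists, RIG-I-like receptor partners and DNA sensing and nucleic acid clearance, and all lie below 0.

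For the 4 genes called in both regions, the likeness of every other gene was measured over the 20 libraries, after each group mean had been subtracted from log2 CPM, so that the STZ effect itself plays no part. Among 14588 genes compared (14589 for Zbp1), Ddx58 was most like Adgrv1 (Pearson r = 0.74) and Bche (r = 0.74). Dhx58 was most like Pdia5 (r = 0.79) and Nthl1 (r = 0.79), and Eif2ak2 was most like Zkscan16 (r = 0.91) and Pcm1 (r = 0.9). Zbp1, at few counts, was most like Mindy4b-ps (r = 0.84) and Atf3 (r = 0.8). None of these 8 genes is a sensor or adaptor of the 9, and none was called in either region. The libraries share depth and punch content. Each named gene is also the best or second best of all compared, and such a choice gives a high r even without a link. These values are therefore a description, and no link between the genes was tested.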

How the data were processed

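The deposited table gave raw counts per Ensembl gene identifier, 1 column for each of 20 libraries and none pooled, as the authors made them. Libraries were poly(A)-selected and stranded, per the labels' protocols, and the build was GRCm39 (mm39), per the submitters' processing notes. Aligner, counting program, strand setting and annotation release: not given in the sources used here. Values of overlapping and near-identical genes are therefore uncertain. Symbols came from tables of other builds, which matched 51884 of 57180 identifiers, and promoter windows came from RefSeq on GRCm38.p6. No coordinates were converted. Sting1 and Pit1 were matched through older names, and Tasl had no match.

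STZ was compared with control in a separate fit for each region, by edgeR's quasi-likelihood test (edgeR 4.0.16, R 4.3.3, robust option). Libraries were scaled by TMM, and genes passed filterByExpr at a count of at least 10 and a total of at least 15. P-values were adjusted over all genes tested (Benjamini-Hochberg, called under 0.05). Each SE belongs to a log2 fold change. PVT was set against pIC within STZ and within control mice, and the difference in STZ effect was tested over all 20 libraries. CPM is the count scaled to a library total of 1000000, without the TMM scaling of the fits, with mean and SD over libraries. Overlap of groups was read from CPM. Total counts were 17.9 M to 25.5 M a library, and errors cover the spread between libraries. No 2 libraries of a group were duplicates (lowest chi-square per degree of freedom 4.0). The fits were also run on simulated counts, with the same dispersion for every gene and no library that stands apart, unlike these data. That run is a check of the code only.

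The members, the lists and the alternatives were chosen with earlier results of these data known. Named genes were all 9 members, the called genes of each partner list (up to 4 for each list and region by smallest p, or the 1 of smallest p), and, for members called in both regions, the 2 genes of at least 1 CPM with the highest correlation. Alternatives were RLE and upper quartile scaling, no filter or a mean of at least 1 CPM, DESeq2 1.42.0, limma-voom (limma 3.58.1) with quality weights, a replicate block, all 20 libraries in 1 fit, a microglia score (mean log2 CPM of 10 markers, prior count 2) as covariate, glmTreat against a fold of 2 between regions, and leaving out libraries.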

Additional observations from a re-analysis of the deposited data

Results flagged for a closer look

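In each group the highest or lowest library was set against the nearest of the others. A gap above the critical value for that number of libraries was found in 5 of 36 combinations of gene and group, and chance alone gives about 1 in 20. Ifih1 had 10.7 CPM in pIC control replicate 1, above the other 3 pIC controls. Dhx58 had 0.547 CPM in PVT STZ replicate 4, below the other 5 libraries of its group, and 2.74 CPM in pIC control replicate 3, above the other 3. Eif2ak2 had 14.5 CPM in PVT control replicate 1, above the other 3 PVT controls. Adar had 160.0 CPM in pIC control replicate 2, below the other 3 pIC controls. The 5 values came from 5 different libraries, and the called falls of Dhx58 and Eif2ak2 held when any of them was left out.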

How the results depend on the processing

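Of 178 recomputed counts of genes, 159 stayed within 1.5 times the reported count, and these include counts of 0 that stayed 0. Of the counts of genes higher in PVT than in pIC, 8 of 20 moved further than that with STZ and 5 of 16 in controls. In PVT 6 genes fell, against 2 with a replicate block, Ddx58 and Eif2ak2. The adjusted p with the block was 0.0551 for Ifih1, 0.0561 for Zbp1, 0.102 for Tlr3 and 0.103 for Dhx58. The block left out STZ replicates 5 and 6, whose numbers no control has, and joined each control to the STZ library of the same number. Nothing in the labels ties those libraries together beyond the number. Without the 4 libraries low in thalamus genes, 2 of the 6 fell. Leaving out any 1 library kept 6. Genes higher with STZ numbered 0, but 1 (Tlr7) in PVT with all 20 libraries in 1 fit and 1 (Tlr7) in pIC with DESeq2. In pIC 3 to 6 fell over the alternatives and 4 to 5 with 1 library left out. Of the 2 genes higher in PVT than pIC, glmTreat called 0 with STZ and 0 in controls, the fit without a filter 1 with STZ, and leaving out 1 library 1 to 2 in each. The 1 gene lower in PVT with STZ was 0 under glmTreat and 0 to 1 with 1 library left out. The difference between regions in STZ effect gave 0 calls of the 9 genes in all 27 alternatives. With the motif shortened by 1 base, 4 of the 6 genes with a window matched instead of 3, as did 8.56% of all windows.

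Of 894 recomputed single values, 814 kept direction and side of the threshold, 25 lost a call, 15 gained one and 40 changed sign, each of the 40 from an uncalled value near 0. These were Adar in PVT (-0.04 without the 4 libraries), Mavs in pIC (0.02 with the replicate block, 0.03 with the microglia score, -0.07 to 0.03 with 1 library left out) and Adar in pIC (0.0 with RLE scaling, without a filter, with DESeq2 and in 1 fit, 0.04 with the replicate block, -0.06 to 0.02 with 1 library left out). Between regions they were Eif2ak2 in controls (0.0 with limma-voom, -0.09 to 0.18 with 1 library left out) and, with STZ, Dhx58 (-0.01 with RLE, 0.0 without a filter, -0.02 with DESeq2, -0.1 with limma-voom, 0.0 with the replicate block, -0.06 to 0.1 with 1 library left out), Tlr3 (0.0 with RLE, -0.04 to 0.04 with 1 library left out) and Adar (0.0 with upper quartile scaling). For the difference in STZ effect they were Tlr7 (-0.12 to 0.14) and Adar (-0.01 to 0.13) with 1 library left out. The cause was not tested.

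Over all genes, PVT gave 353 calls and 904 with DESeq2, 679 with all 20 libraries in 1 fit, 70 with the replicate block, 35 without the 4 libraries and 143 to 343 with 1 library left out, lowest without control replicate 4 (143), STZ replicate 4 (151), control replicate 1 (156), STZ replicate 3 (206), STZ replicate 1 (210) and control replicate 3 (211). In pIC 226 calls compare with 468 with DESeq2, 367 with limma-voom and 128 to 272 with 1 library left out, lowest without control replicates 2 (128), 1 (133) and 4 (139). Of the calls in PVT 22.9% were higher with STZ, 39.0% with DESeq2 and 12.2% with upper quartile scaling, and of those in pIC 31.0% were, and 45.9% with DESeq2. Same-numbered STZ and control libraries correlated at -0.261 to 0.44 in PVT and -0.041 to 0.298 in pIC. Same-numbered PVT and pIC libraries correlated at -0.063 to 0.211 with STZ and -0.087 to 0.107 in controls. Not every library correlated best with its own number. PVT STZ libraries 2, 3, 5 and 6 and PVT control library 1 did so with pIC, and the other PVT libraries did not. Such correlations cannot show whether a number shared by PVT and pIC is the same mouse. The numbers were not taken to pair the libraries, and the reported tests treated the libraries as independent. The low counts of Zbp1 and Dhx58 limit how closely their fold changes are known.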
